A study of Homo sapiens with 4 samples.

Results

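The genes that make microRNAs and carry them to their targets were followed on 4 dual-channel cDNA arrays of A549 cells, a human lung adenocarcinoma line. The set holds 10 genes, taken by name: DROSHA, DGCR8, XPO5, DICER1, TARBP2, GEMIN4, AGO1, AGO2, AGO3 and AGO4. All 10 were among the 12483 genes measured, through 22 cDNA clones out of the 20976 with exactly 1 gene symbol. A further 3 clones, whose annotation lists DICER1 or GEMIN4 together with another gene, were left out by the same rule. The rule names the genes and uses no measured value of them, though the set was chosen with earlier results of these data known.

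Each array set RNA of a culture overexpressing let-7a-3, which encodes a let-7 microRNA, against RNA of a parental culture, with the dyes exchanged between arrays. With the parental line as the control, the effects of let-7a-3 cannot be told apart from those of being transfected and selected. The sources used here do not give whether the overexpressing cultures came from 1 transfected line or several. The numbered RNA sources of the channels put arrays 1 and 3 in 1 dye orientation and arrays 2 and 4 in the opposite one. Which source numbers were the overexpressing cultures is not stated, and neither are the channel in the numerator, the base of the logarithm, or whether the ratios had been turned to 1 orientation before deposit. Signs are therefore those of the deposited log ratios, and a positive value cannot be assigned to either culture. No fold is given.

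A microRNA is cut out of its primary transcript in the nucleus by the nuclease Drosha with its RNA-binding partner DGCR8. Exportin 5 carries the resulting hairpin to the cytoplasm, where Dicer, helped by the RNA-binding protein TRBP, cuts it again, and 1 strand is loaded into an Argonaute protein. Let-7 is known for repressing its targets through this machinery, and the mRNA of Dicer itself is a known let-7 target.

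The overexpressed gene is shown first, because its product is what the 10 genes would process. The hairpin of let-7a-3 lies at chr22:46112749-46112822 on the plus strand (RefSeq, GRCh38.p14). It is written with both mature arms in capitals, and the mature RNAs are written with the seed (bases 2 to 8) in capitals.
let-7a-3 hairpin: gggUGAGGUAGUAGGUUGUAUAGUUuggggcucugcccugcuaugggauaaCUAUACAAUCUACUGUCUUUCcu
hsa-let-7a-5p: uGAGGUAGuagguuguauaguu
hsa-let-7b-5p: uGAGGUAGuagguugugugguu
The 22-base let-7a-5p is the same in all 3 hairpin genes that encode it, so the RNA made from let-7a-3 has the sequence of the let-7a made from the other loci. Let-7b, shown because only 863 bases separate its hairpin from that of let-7a-3, differs from it at 2 positions outside the seed. This seed is shared by 11 mature names in RefSeq, 8 of them named let-7. Transcripts of the locus itself (MIRLET7A3, MIRLET7B and their host gene MIRLET7BHG) were not found under their symbols, so the overexpression could not be checked here.

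The arrays had medians between -0.0022 and 0.017 and standard deviations (SD) between 0.173 and 0.193 over 26629 probes. Arrays of 1 orientation correlated across probes at r = 0.43 and 0.56, and pairs of opposite orientation between -0.16 and 0.055. Each gene was therefore described by 2 quantities, both fitted over all genes in limma. The shared component is the mean log ratio over the 4 arrays. The alternating component is the part that changes sign with the dye orientation, given with the sign it has on arrays 1 and 3. If the deposited ratios had been turned to 1 orientation, the shared component would hold the let-7a-3 effect, and otherwise the alternating one would; a dye effect would fall in the remaining component. The labels do not settle which. The number of arrays limits the precision. The p-values rest on the spread between arrays of the same orientation, moderated with that of all genes. They cover no variation beyond these 4 arrays. Only ratios were deposited, so the level of each gene in A549 cells, and markers of the line, could not be seen.

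The first question was whether any step of the pathway differed between the cultures as read from the shared component. None of the 10 genes passed an adjusted p of 0.05 (limma, Benjamini-Hochberg over 12483 genes), while 3.04% of all genes did (1.63% with a positive and 1.41% with a negative value). The gene with the largest value was AGO2, at 0.104, and it was the member with the same sign on all 4 arrays. AGO2 was also the 1 member with an unadjusted p under 0.05 in limma, a level that 14.6% of all genes reached. The median of the members was 0.027, beside 0.0069 over all genes. The median size of the shared component was 0.046 over the members and 0.045 over all genes, and 6 of the 10 values were positive. Averaged over clones, every member's 95% interval in this component lay between -0.170 and 0.197. Larger values were outside the interval of each gene average taken singly. Intervals of single clones reached further, to 0.269 in AGO2 clone 1 and -0.259 in AGO3 clone 2. The smallest shared component of any gene called was 0.186 in size, and the median of those called was 0.289.

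The second question was the same one read from the alternating component. GEMIN4 passed, at -0.200 (adjusted p = 0.0418 in limma), and the other 9 genes did not; over all genes 3.29% passed, 1.90% with a positive and 1.39% with a negative value. In this component 2 members, GEMIN4 and DROSHA, had an unadjusted p under 0.05, as did 25.6% of all genes. The median was 0.0085 over the members and -0.0081 over all genes, and the median size 0.048 over the members and 0.062 over all genes. The values of arrays 1 and 3 did not overlap those of arrays 2 and 4 in 8 of the 10 members, beside 57.0% of all genes. Among single clones this held in 13 of 22, beside 57.0% of all probes.

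**Figure D1:**
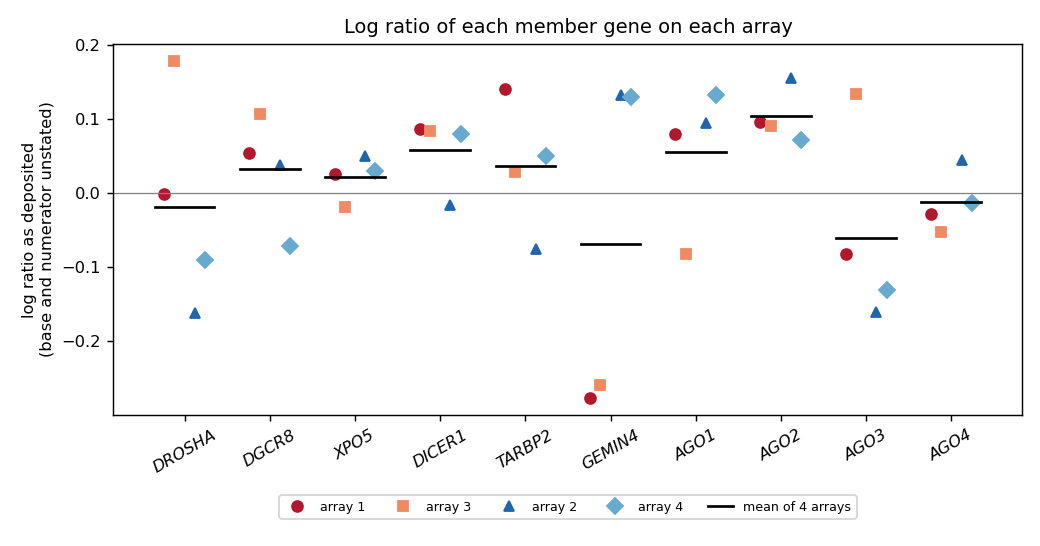
The log ratio as deposited (vertical axis, base and numerator unstated) of each member gene, averaged over its clones, on the 4 arrays, with arrays 1 and 3 in red shades and arrays 2 and 4 in blue shades; black bars are the means of the 4 arrays. AGO2 lies above 0 on every array, and GEMIN4 splits into -0.277 and -0.259 on arrays 1 and 3 and 0.133 and 0.130 on arrays 2 and 4.

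Nuclear cleavage was represented by DROSHA, the nuclease, and DGCR8, which anchors it to the hairpin. DROSHA stood at -0.0013 and 0.179 on arrays 1 and 3 and at -0.162 and -0.090 on arrays 2 and 4. The 2 orientations did not overlap, with arrays 1 and 3 the higher. Its shared component was -0.019 ± 0.147 (SD, n = 4; 95% interval -0.125 to 0.088; limma adjusted p = 0.895) and its alternating component 0.107 (interval 0.00095 to 0.214; adjusted p = 0.192). Neither passed with all 4 arrays. The alternating component passed in 1 of the 13 alternatives tried, without array 1, which left 1 array of that orientation. It was 0.152 there and lay between 0.062 and 0.194 over all 13.

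The 3 DROSHA clones differed from each other. Clone 3 had the lowest value of any member clone, -0.485 on array 2, and stood at 0.029, 0.265 and 0.0025 on arrays 1, 3 and 4. Clone 2 was at 0.144, 0.047, 0.104 and -0.234 on arrays 1 to 4, low on array 4 in place of array 2. Clone 1 was low on array 1 (-0.177) and high on array 3 (0.168), with -0.048 and -0.037 on the others. The low values thus fell on a different array in each clone.

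DGCR8 read 0.054, 0.039, 0.107 and -0.071 on arrays 1 to 4, with array 4 alone below 0. The shared component was 0.032 ± 0.075 (SD, n = 4; adjusted p = 0.788) and the alternating component 0.048 (adjusted p = 0.504), neither past the threshold in limma. The 3 clones had shared components of 0.010, 0.038 and 0.048, a range of 0.038, where genes with 3 clones had a median range of 0.117. In the shared component this was the closest agreement among the 8 members with 2 or more clones.

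Nuclear export was represented by XPO5, exportin 5, which binds hairpins together with the GTPase Ran. Averaged over its clones XPO5 had the smallest spread of the members, at 0.026, 0.051, -0.019 and 0.030 on arrays 1 to 4 (shared 0.022 ± 0.029, SD, n = 4; limma adjusted p = 0.841; alternating -0.018, adjusted p = 0.806). That average hid opposite clones. Clone 1 was at -0.0016 and -0.101 on arrays 1 and 3 and 0.259 and 0.252 on arrays 2 and 4. Clone 2 was at 0.054 and 0.064 on arrays 1 and 3 and -0.157 and -0.191 on arrays 2 and 4. Within each clone the orientations were apart, in opposite directions. The alternating components were -0.153 (adjusted p = 0.104) and 0.116 (adjusted p = 0.177), 0.270 apart, where genes with 2 clones had a median range of 0.101. The near-zero average of XPO5 therefore stands for a pair of clones that did not agree in sign in either component.

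Cytoplasmic cleavage was represented by DICER1, the nuclease that releases the mature duplex, and TARBP2, which encodes its partner TRBP. DICER1 rested on 1 clone, which read 0.087, 0.085 and 0.080 on arrays 1, 3 and 4 and -0.016 on array 2. Arrays 1, 3 and 4 lay close together and array 2 stood apart. The shared component was 0.059 ± 0.050 (SD, n = 4; 95% interval -0.035 to 0.153; limma adjusted p = 0.569) and the alternating component 0.027 (interval -0.068 to 0.121; adjusted p = 0.721). Without array 2 the shared component was 0.083 and did not pass (adjusted p = 0.852; range over the 13 alternatives 0.508 to 0.934). As a known let-7 target DICER1 had neither component past the threshold, and its interval contains 0 and values on both sides of it.

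TARBP2 read 0.141, -0.075, 0.029 and 0.050 on arrays 1 to 4. The orientations overlapped. Its shared component was 0.036 ± 0.089 (SD, n = 4; adjusted p = 0.773 in limma) and the alternating one 0.049 (adjusted p = 0.525). Clone 1 had the highest single value of all member clones, 0.294 on array 1, with -0.025, 0.095 and 0.044 on arrays 2 to 4. Clone 2 lay between -0.125 and 0.057.

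GEMIN4 encodes a component of the SMN complex, which assembles spliceosomal ribonucleoproteins, and is also known from particles that hold an Argonaute protein. It was measured by 1 clone. The log ratio was -0.277 and -0.259 on arrays 1 and 3 and 0.133 and 0.130 on arrays 2 and 4. The orientations were far apart, and the arrays of each pair lay close together. The alternating component was -0.200 (standard error 0.039; 95% interval -0.290 to -0.109; adjusted p = 0.0418), and 283 of the 12483 genes had an unadjusted p this low or lower. In the fit over 26629 single probes, where 4.28% passed, the same clone did not pass (adjusted p = 0.0527). Leaving out any array leaves 1 array of its orientation. At the gene level the call was then lost without array 2 and without array 4, and held without array 1 and without array 3. The values were -0.199, -0.200, -0.195 and -0.204 in that order. The call was also lost without the shared term in the fit (adjusted p = 0.121) and without moderation (adjusted p = 0.257). It held in 9 of the 13 alternatives, including the clone summaries, which could not test it because GEMIN4 has 1 clone. The shared component of GEMIN4 was -0.068 ± 0.231 (SD, n = 4), the lowest of the members, and did not pass (adjusted p = 0.487).

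**Figure D2:**
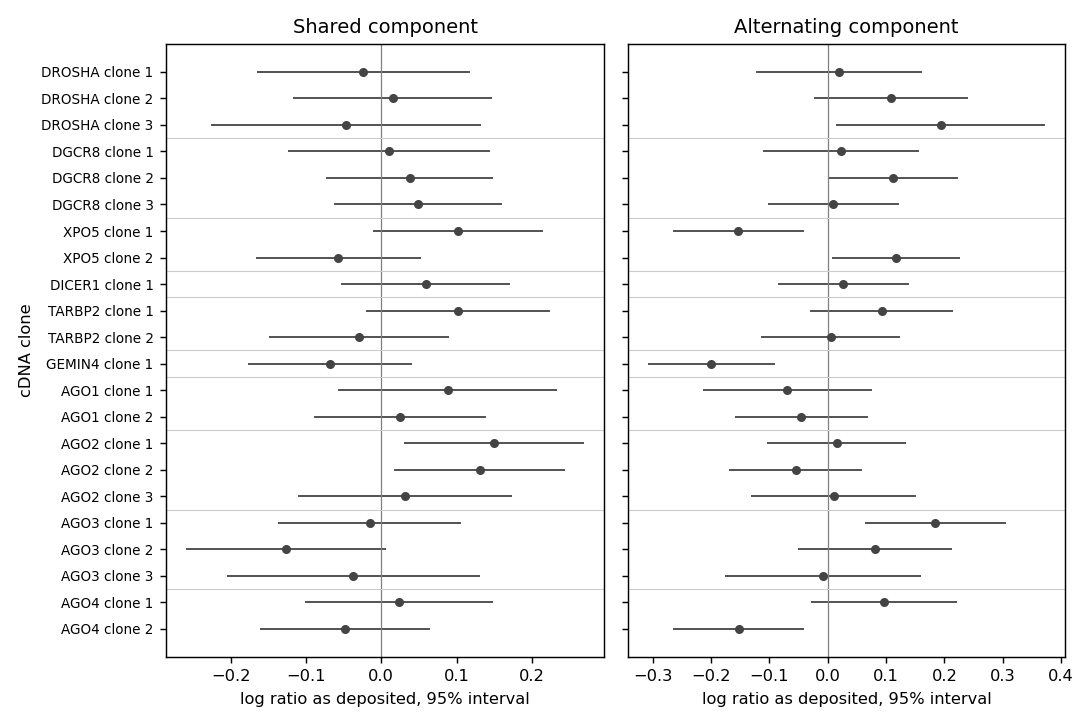
Shared (left) and alternating (right) component of each of the 22 clones, as points with 95% intervals from the fit over all probes; the horizontal axes are log ratios as deposited. No clone passed an adjusted p of 0.05 in either component, GEMIN4 (-0.200) lies lowest on the right, and the XPO5 clones (-0.153 and 0.116) and AGO4 clones (-0.153 and 0.097) lie on opposite sides of 0 there.

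The Argonaute genes encode the proteins that hold the mature microRNA. Argonaute proteins repress through partner proteins, and AGO2 also has the slicing activity that cleaves fully paired targets. AGO4, AGO1 and AGO3 are neighbours on chromosome 1, with 0 protein-coding genes between them in the RefSeq gene table (GRCh38.p14). The insert sequences of the clones were not used here, so binding of a clone to RNA of a related Argonaute gene was not tested.

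AGO2 read 0.097, 0.156, 0.092 and 0.072 on arrays 1 to 4. All 4 values were positive and the orientations overlapped. One sign on all arrays was found in this member alone, beside 15.8% of all genes. The shared component was 0.104 ± 0.036 (SD, n = 4; standard error 0.040; 95% interval 0.011 to 0.197). It exceeded 84.1% of all genes in size and did not pass (adjusted p = 0.286 in limma, unadjusted p = 0.0333). Over the 13 alternatives it stayed between 0.083 and 0.150, with adjusted p from 0.149 to 0.852. The alternating component was -0.0098 (adjusted p = 0.908).

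The AGO2 clones split into a pair with positive values on every array and 1 that varied. Clone 1 was at 0.245, 0.090, 0.085 and 0.179 on arrays 1 to 4, and clone 2 at 0.117, 0.228, 0.034 and 0.144. Their shared components of 0.150 (adjusted p = 0.262) and 0.131 (adjusted p = 0.314) were the largest of the 22 clones, and neither passed in limma. Clone 3 was at -0.072, 0.150, 0.156 and -0.108, with a shared component of 0.031 (adjusted p = 0.879). Clones 1 and 2 were the member clones with 1 sign on all arrays, 2 of 22, beside 14.1% of all probes.

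AGO1 read 0.080, 0.095 and 0.132 on arrays 1, 2 and 4 and -0.081 on array 3. Array 3 was the one below 0. The shared component was 0.056 ± 0.095 (SD, n = 4; limma adjusted p = 0.620) and the alternating component -0.057 (adjusted p = 0.447). The low value came from clone 1, at -0.163 on array 3 and 0.200, 0.181 and 0.135 on arrays 1, 2 and 4. Clone 2 lay between -0.041 and 0.130.

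AGO3 went the other way on array 3, with 0.135 there and -0.082, -0.161 and -0.131 on arrays 1, 2 and 4. The shared component was -0.060 ± 0.134 (SD, n = 4; adjusted p = 0.628 in limma) and the alternating component 0.086 (adjusted p = 0.295). Clone 1 followed the orientation, at 0.138 and 0.200 on arrays 1 and 3 and -0.106 and -0.295 on arrays 2 and 4 (alternating 0.185, adjusted p = 0.0795). Clone 2 was at -0.182, -0.162, 0.092 and -0.252 on arrays 1 to 4, and its shared component, -0.126, was the lowest of the 22 clones (adjusted p = 0.430). Clone 3 was negative on arrays 1 and 2 (-0.203 and -0.214) and positive on arrays 3 and 4 (0.113 and 0.155). All 3 clones were positive on array 3, and on each of the other arrays at least 1 was negative. With the clone of largest statistic in place of the mean, the alternating component of AGO3 passed (0.185, adjusted p = 0.0462 in limma). That clone was chosen by the statistic then tested, and 1949 of the 12483 genes passed in this setting, beside 411 with the mean. Over the 13 alternatives the component lay between 0.032 and 0.185.

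AGO4 stayed near 0, at -0.028, 0.045, -0.053 and -0.013 on arrays 1 to 4 (shared -0.012 ± 0.041, SD, n = 4; limma adjusted p = 0.919; alternating -0.028, adjusted p = 0.698). As in XPO5, the average held clones of opposite sign. Clone 1 was at 0.151 and 0.089 on arrays 1 and 3 and 0.038 and -0.185 on arrays 2 and 4. Clone 2 was at -0.207 and -0.195 on arrays 1 and 3 and 0.051 and 0.160 on arrays 2 and 4 (alternating -0.153, adjusted p = 0.106). The alternating components lay 0.25 apart.

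Across the family the order of the shared components was AGO2 (0.104), AGO1 (0.056), AGO4 (-0.012) and AGO3 (-0.060). Each gene's 95% interval overlapped those of its neighbours in this order, and the interval of AGO3, -0.170 to 0.051, overlapped that of AGO2. With 1 array left out the values ranged from 0.083 to 0.125 in AGO2, 0.016 to 0.097 in AGO1, -0.027 to 0.0021 in AGO4 and -0.114 to -0.0055 in AGO3. Without array 1 AGO3 (-0.0055) lay above AGO4 (-0.018), so the order of these neighbours rests on that array. Averaged over clones, the chromosome 1 neighbours AGO1 and AGO3 had opposite signs on all 4 arrays. AGO4 had the sign of AGO1 on arrays 2 and 3. Single clones did not all keep this. AGO3 clone 1 was positive on array 1 (0.138) and AGO3 clone 3 on array 4 (0.155), as AGO1 was.

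**Figure D3:**
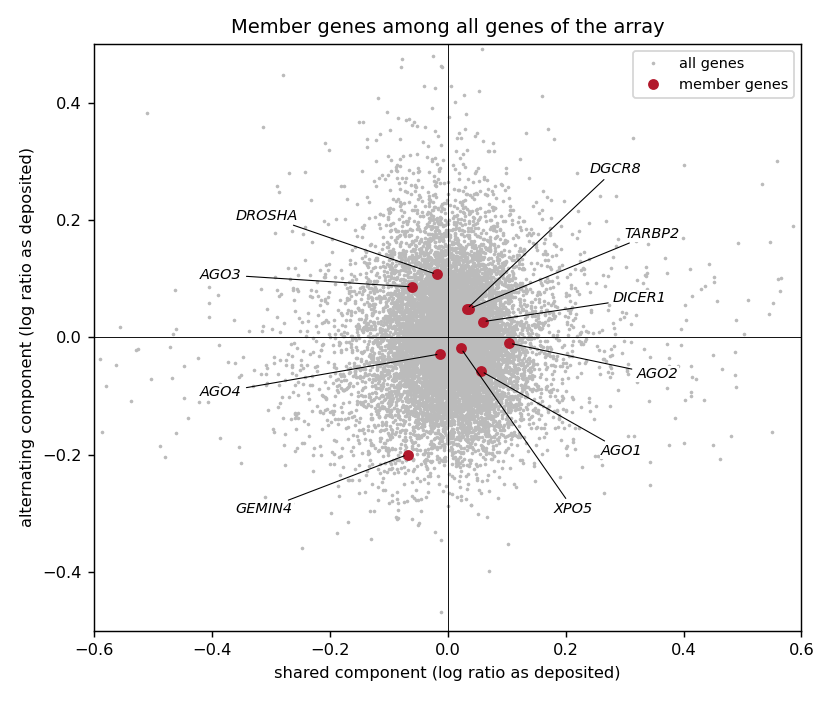
Shared (horizontal) and alternating (vertical) component of each gene, as log ratios as deposited, with all 12483 genes in grey and the member genes in red; 56 genes lie beyond the axes. Of the members AGO2 (0.104) lies farthest right and GEMIN4 (-0.200) lowest.

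Disagreement between clones was common on these arrays. In the shared component 4 of the 8 members with 2 or more clones had clones of both signs (DROSHA, XPO5, TARBP2 and AGO4), beside 58.0% of 5075 such genes. In the alternating component there were also 4 (XPO5, AGO2, AGO3 and AGO4), beside 60.9%. No member clone passed in the shared component or in the alternating component (limma, over 26629 probes), beside 2.07% and 4.28% of all probes. At an unadjusted p under 0.05 there were 2 and 7 of the 22 clones, beside 12.5% and 25.2%.

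The surroundings of the pathway were described from 8 lists of partner genes, 133 in all, of which 107 were measured and 4 stand in 2 lists. In the shared component 5 of the 107 passed (4.67%), 4 with a negative value, and in the alternating component 4 (3.74%), 2 with a negative value. Over all genes these shares were 3.04% and 3.29%. The lists, like the members, were chosen with earlier results of these data known. None of the 9 calls held without moderation, and only those of RAN and HSP90AA1 held when the fit had 1 component alone.

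Among partners of nuclear cleavage 1 of 16 passed, ILF2, a double-stranded RNA-binding partner of the factor NF90 (limma shared -0.211, adjusted p = 0.0478). It was negative on every array, at -0.303, -0.190, -0.142 and -0.209. The call was lost without array 2 (adjusted p = 0.223) and without array 4 (adjusted p = 0.238; range over 13 alternatives 0.00096 to 0.435), and the clone did not pass among single probes (adjusted p = 0.0898). The list had a median of -0.035 in the shared and -0.015 in the alternating component.

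In nuclear export RAN stood out. RAN encodes the GTPase that loads cargo onto exportin 5 and other exportins, and it was negative on all arrays, at -0.363, -0.223, -0.406 and -0.232. Its shared component was -0.306 ± 0.092 (SD, n = 4, limma adjusted p = 0.00554), and lay between -0.317 and -0.295 with 1 array left out. It passed in 12 of 13 alternatives, including the clone summaries, which could not test it because RAN has 1 clone. Without moderation the adjusted p was 0.291. The clone also passed among single probes (adjusted p = 0.0129). The other 11 of 12 export genes did not pass, and the list median was 0.0069 in the shared and -0.013 in the alternating component. XPO5 itself was at 0.022, as given above.

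None of 13 measured partners of let-7 maturation and of Dicer passed in either component of limma (0 and 1 at an unadjusted p under 0.05, beside 14.6% and 25.6% of all genes). The median was 0.00040 in the shared and 0.018 in the alternating component. LUC7L3 had the largest moderated statistic in the shared component (-0.088, adjusted p = 0.367). LIN28A, which blocks maturation of let-7 in stem cells, was at -0.025, 0.186, 0.140 and 0.0023 on arrays 1 to 4 (shared 0.076, adjusted p = 0.549). LIN28B and TRIM71, both known let-7 targets, were not found under their symbols.

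Of 25 Argonaute effectors and chaperones, HSP90AA1, a chaperone that keeps Argonaute open for loading, passed in the shared component (-0.488 ± 0.233, SD, n = 4; limma adjusted p = 0.0013). Its values were -0.570, -0.347, -0.776 and -0.258 on arrays 1 to 4. The alternating component of HSP90AA1, -0.186, did not pass (adjusted p = 0.0722). AJUBA, a LIM protein found with Argonaute, passed in the alternating component (0.244, adjusted p = 0.0418), at 0.192 and 0.387 on arrays 1 and 3 and -0.148 and -0.249 on arrays 2 and 4. The AJUBA call was lost without array 2 and without array 4, and held without array 1 and without array 3. Without moderation its adjusted p was 0.323. The scaffold proteins of silencing did not pass in either component. The shared component was -0.016 for TNRC6A (adjusted p = 0.932), -0.0086 for TNRC6B (adjusted p = 0.963) and -0.094 for TNRC6C (adjusted p = 0.374). The alternating component was 0.0084 (adjusted p = 0.950), -0.113 (adjusted p = 0.239) and -0.072 (adjusted p = 0.328) in the same order. The list medians were -0.014 in the shared and -0.027 in the alternating component.

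In deadenylation, decapping and decay 1 of 29 genes passed in the shared component and 3 in the alternating one. TOB1, an adaptor of the CCR4-NOT deadenylase, was at 0.057, 0.423, 0.067 and 0.316 on arrays 1 to 4 (shared 0.216, limma adjusted p = 0.0337), positive on all and higher on arrays 2 and 4. Its clone did not pass among single probes (adjusted p = 0.0725). PAN2, a deadenylase, had an alternating component of 0.284 (adjusted p = 0.0286), and both of its clones passed among single probes (0.329 and 0.240). Its values were 0.239 and 0.426 on arrays 1 and 3 and -0.251 and -0.220 on arrays 2 and 4. PATL1 (-0.212, adjusted p = 0.0418) and LSM7 (-0.211, adjusted p = 0.0395), both of the decapping machinery, had the opposite sign. PATL1 was at -0.151, 0.264, -0.239 and 0.194 on arrays 1 to 4 and LSM7 at -0.078, 0.297, -0.157 and 0.314. Leaving out array 2 or array 4 ended each of these 4 calls, and leaving out array 1 or array 3 ended none of them. Calls over all genes moved the same way. The highest adjusted p over the 13 alternatives was 0.381, for TOB1 with the shared component fitted alone. The list medians were 0.027 in the shared and -0.0042 in the alternating component.

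Of the 15 measured genes of the SMN and Gemin complex, the assembly in which GEMIN4 sits, STRAP passed in the shared component (-0.255, limma adjusted p = 0.0478). It was at -0.307, -0.321 and -0.353 on arrays 1 to 3 and -0.037 on array 4. The call was lost without array 2 (adjusted p = 0.299) and with array weights (adjusted p = 0.0556; range over 13 alternatives 0.0018 to 0.508), and the clone did not pass among single probes (adjusted p = 0.0716). None of the 15 passed in the alternating component, in which GEMIN4 did. In limma 7 of them had an unadjusted p under 0.05 there, beside 25.6% of all genes, and the list median was -0.048, and -0.0072 in the shared component. PIWIL1, the measured gene of the PIWI branch of the family, was at -0.184, 0.156, 0.154 and 0.089. Its shared component was 0.054 (adjusted p = 0.741) and its alternating component -0.069 (adjusted p = 0.494).

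**Figure D4:**
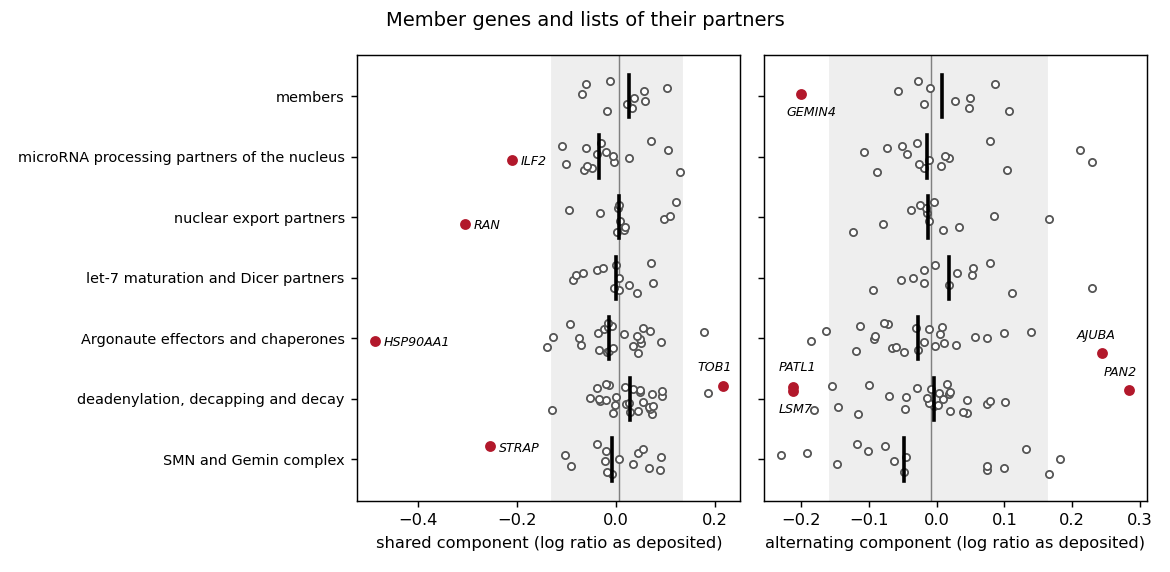
Shared (left) and alternating (right) component of the members and of 6 partner lists, as log ratios as deposited; each circle is a gene, filled red where its adjusted p is under 0.05, black bars are list medians, the grey line is the median of all genes and the grey band holds the 5th to the 95th percentile of all genes. RAN (-0.306) and HSP90AA1 (-0.488) lie well to the left of the band in the left panel, while no member lies outside it there; in the right panel GEMIN4 (-0.200) is outside the band.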

How the data were processed

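The series design text names ArrayMagic with variance-stabilizing normalization (VSN) for the scanner files and limma for the comparison. The authors deposited log ratios, 1 column per array, with no missing value. Versions of their software, spot filters and averaging are not stated in the sources used here. VSN compresses the ratios of dim spots, and no intensities were used here, so dim clones were not filtered.

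Log ratios were used as deposited. Clones were named through the platform annotation (all 10 members matched a gene ID in RefSeq, GRCh38.p14) and averaged per symbol. Limma 3.58.1 (R 4.3.3) fitted the shared and the alternating component to every gene and every probe on 2 residual degrees of freedom, with empirical Bayes moderation adding 5.89 for genes and 7.22 for probes. The two-sided p-values were adjusted by Benjamini-Hochberg over all genes or all probes. Intervals are 95% intervals of the moderated fit, and ± values are SDs over the arrays, which hold both components. The members and lists were chosen with earlier results of these data known. All members are named; of each partner list, genes past the threshold (at most 4) or else the gene with the largest shared statistic are named, plus LIN28A and TNRC6A to TNRC6C. Alternatives were other centring, scaling, moderation (statmod 1.5.0), weights, clone summaries and thresholds, and leaving out each array; those for partner genes were chosen after seeing the data. Figures used matplotlib 3.10.9 in Python 3.11.15.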

Additional observations from a re-analysis of the deposited data

Results flagged for a closer look

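DICER1, measured by 1 clone, stood apart on array 2 (-0.016), where the other 3 arrays lay between 0.080 and 0.087; the gap was 0.937 of the range, above Dixon's critical value. STRAP stood apart on array 4 (-0.037, a gap of 0.854 of the range). These were 3 of 47 sets of 4 values checked (10 genes, 22 clones and 15 partner genes, DICER1 counting both as gene and as clone), where chance gives about 1 in 20. GEMIN4 differed between arrays 1 and 3 (mean -0.268) and arrays 2 and 4 (mean 0.132), with an alternating component of -0.200 (limma adjusted p = 0.0418).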

How the results depend on the processing

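With 4 arrays and 2 fitted components the fit has few degrees of freedom of its own, and calls rest on variance shared between genes. Leaving out 1 array leaves 1 array of its orientation, and calls then moved over all genes, not in the named genes alone. The count of member genes past the threshold in the shared component, and of member clones there, was 0 under every alternative run. In the alternating component, 1 member gene passed; the count was 0 without the other component, without moderation and at a threshold of 0.01, and 2 with the clone of largest statistic, and between 0 and 2 with 1 array left out. Member clones past the threshold there went from 0 to 1 with quantile normalization and 2 at a threshold of 0.1. Over all genes the shared count of 379 became 156 without the other component, 0 without moderation, 613 and 162 at thresholds of 0.1 and 0.01, 690 with the clone of largest statistic, and 179 to 1471 with 1 array left out. The alternating count of 411 became 10, 1, 1400, 7 and 1949 in the same order, and 39 to 2292 with 1 array left out. Signs turned for DROSHA in the shared component (0.028 with the median over clones, and -0.064 to 0.027 with 1 array left out), for AGO4 there (-0.027 to 0.0021 with 1 array left out) and for AGO2 in the alternating component (-0.031 to 0.011 with 1 array left out), none of them called; the cause was not tested. Each log ratio already sets a culture of 1 condition against a culture of the other on the same array, so the fits are paired by array and no replicate block was added.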
